A study of Mus musculus with 12 samples.

Results

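The genes described here encode the proteins of the cytosolic ribosome. They were chosen by name alone: every gene in the count files whose symbol is Rps or Rpl with a number (and at most a letter and a further digit), together with Rpsa, Rplp0, Rplp1 and Rplp2, leaving out mitochondrial ribosomal proteins, S6 kinases and pseudogenes named as such. The rule gave 88 of 41214 genes, 36 of the small subunit (Rps and Rpsa) and 52 of the large subunit (Rpl and Rplp). RefSeq annotates 83 of them as protein-coding and 5 as pseudogenes (Rpl6l, Rps3a2, Rps3a3, Rps4l and Rps12l1), and they lie on 19 chromosomes. RNA came from leukaemic cells of 4 mice, all C57/BL6 with the NUP98-HOXD13 transgene, a fusion gene driven in blood cells by Vav regulatory elements that causes myelodysplasia and acute myeloid leukaemia. The 2 KI mice carried the genotype Gfi1 KI/wt and the 2 KD mice Gfi1 KD/KD. In mouse lines of these names the altered allele holds human GFI1 coding sequence, expressed at a reduced level in KD. Gfi1 is a transcriptional repressor that acts in blood development. Each library was made from 1 mouse, and no ages are given in the labels. The comparison asks how far ribosomal protein transcripts differ between leukaemias with the KD and the KI genotype.

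Gene counts came to between 4581593 and 11934542 per library. KI replicate 1 was the shallowest and stood apart: 88.3% of its uniquely aligned reads fell in no gene, against 63.2% to 68.3% in the other 3 libraries, and its counts for receptors of smell, pheromone and taste, genes silent in blood, came to 970 CPM against 137 to 232. CPM are counts per 1000000, scaled between libraries by TMM (trimmed mean of M values). Where 4 values follow each other below, the KI mice come first, replicate 1 before replicate 2, and then the KD mice likewise. Satellite-like loci took 40.5% and 45.8% of the KI gene counts but 20.2% and 21.9% of the KD ones. Mouse Gfi1 had 36.2 and 89.0 CPM in KI and 7.22 and 1.12 CPM in KD, the order that the labels give. The 11 markers of leukaemic myeloid cells summed to 2804 and 4003 CPM in KI and 3693 and 4821 CPM in KD. The granule gene Mpo, the leukocyte gene Ptprc and the myeloid factor Spi1 were each above 100 CPM in all 4 libraries, while Meis1, a partner of Hox proteins, was at 15.3, 1.19, 6.58 and 1.21 CPM and Hoxa9 at 40.8, 10.3, 75.4 and 37.4 CPM. Xist, the X-inactivation RNA, was high in replicate 2 of both genotypes (608 and 954 counts per 1000000 gene counts) and low in replicate 1 of both (12.2 and 0.503).

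Each ribosome holds a single copy of most of these proteins (the acidic stalk proteins are present in several), so the proteins are needed in matched amounts. Most of the transcripts begin with a C followed by a run of pyrimidines, the 5′ terminal oligopyrimidine (TOP) tract. Through it the growth-regulating kinase mTOR, acting on the RNA-binding protein LARP1, sets how strongly they are translated. In blood, loss of a single copy of certain ribosomal protein genes causes Diamond-Blackfan anaemia, a failure of red cell formation, and excess free Rpl5 and Rpl11 stabilise p53 by binding Mdm2. Loss of a copy of RPS14 contributes to the 5q- form of myelodysplasia.

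The start sites are shown first because of the pyrimidine tract described above, which not every window shows. The RefSeq promoter table (GRCm38.p6) held windows for 63 of the 88 genes, 75 windows in all since some genes have several start sites, of which the one with the longest run is shown. Each line gives 10 bases before and 20 bases from the annotated start, 5′ to 3′ on the gene's strand, with the longest run of C and T in capitals. The first 8 are the members with the longest runs. The others are members that the results below turn on.

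Rpl27a, chr7:109519185-109519214, plus strand: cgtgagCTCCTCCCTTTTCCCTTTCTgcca
Rpl35, chr2:39005112-39005141, minus strand: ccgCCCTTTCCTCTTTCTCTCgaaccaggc
Rpl15, chr14:18270967-18270996, minus strand: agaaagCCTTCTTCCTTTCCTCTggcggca
Rpl7a, chr2:26910797-26910826, plus strand: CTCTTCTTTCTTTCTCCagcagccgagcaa
Rpl13a, chr7:45128726-45128755, minus strand: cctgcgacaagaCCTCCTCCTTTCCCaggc
Rpl14, chr9:120571507-120571536, plus strand: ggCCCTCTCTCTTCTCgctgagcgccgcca
Rpl34, chr3:130730318-130730347, minus strand: CTTTTCCTCTTCCggggacggtgctcagag
Rpl35a, chr16:33056472-33056501, plus strand: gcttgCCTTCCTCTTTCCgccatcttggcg
Rpl10, chrX:74270806-74270835, plus strand: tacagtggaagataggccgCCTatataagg
Rpl22, chr4:152324426-152324455, plus strand: CTTCTggaatgttccagctcccactgacag
Rpl22l1, chr3:28805498-28805527, plus strand: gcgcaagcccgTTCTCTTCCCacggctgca
Rplp0, chr5:115559457-115559486, plus strand: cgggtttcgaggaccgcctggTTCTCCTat
Rps19, chr7:24884903-24884932, plus strand: agcggggtgtggagggCTCTCCCacgcggt

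A run of at least 8 pyrimidines lay in 24 of the 75 member windows (32%), against 11.2% of all 32851 windows in the table. The share was 35% of windows of translation factors and other TOP mRNAs, 8.11% of those of mitochondrial ribosomal proteins and 8.33% of those of the proteasome core. A run of at least 8 purines, the same run on the other strand, lay in 3 member windows (4%) and in 13.3% of all. The annotated start is not always the one used in the cells, so a tract outside the window is missed. In the full windows of 300 bases, searched on both strands, the ETS core CCGGAA was in 48% of member windows and 14.9% of all, the GC box GGGCGG in 60% and 35.7%, and the YY1 motif AAGATGGC in 10.7% and 2.75%. AAATCAC, letters from the GFI1 site, were in 2 member windows (2.67%) and 3.2% of all. These letters can occur by chance, and matches are descriptions only. Members with a run of at least 8 had a median log2 fold change, KD over KI, of 0.04 (24 tested members), those with shorter runs 0.04 (36) and those with no window 0.02 (23).

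On the TMM scale, summed ribosomal protein transcripts differed far more between mice of the same genotype than between the means of the genotypes. The 88 genes together summed to 14415 and 34003 CPM in the KI mice and to 19370 and 30419 CPM in the KD mice. The means were 24209 ± 13850 (SD, n = 2) in KI and 24894 ± 7813 (SD, n = 2) in KD, a ratio of 1.03. Both KD libraries lay between the KI libraries, and the exact two-sided permutation test gave p = 1, where the smallest p that 2 against 2 mice allow is 0.333.

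As a share of all gene counts, without TMM scaling, the members held 1.36%, 2.64%, 2.29% and 3.43%. This ratio of KD to KI was 1.43 (exact two-sided permutation p = 0.667). The satellite-like loci, more abundant in both KI libraries, are part of that total. Over protein-coding genes alone the shares were 2.56% and 5.35% in KI and 3.19% and 4.80% in KD, a ratio of 1.01 (exact two-sided permutation p = 1). In these bulk samples fewer cells with high ribosomal protein expression and less of these RNAs per cell cannot be told apart. Depth, reads outside genes, receptor counts and Xist also differ between these libraries, and their part was not tested.

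**Figure D1:**
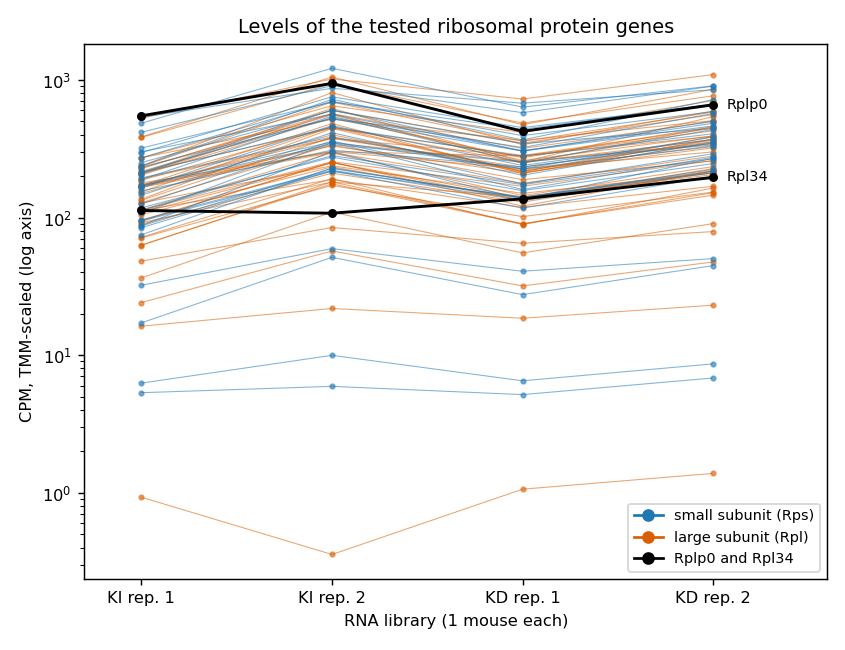
TMM-scaled CPM (log axis) of the 83 tested ribosomal protein genes in the 4 RNA libraries, 1 mouse each; each line joins the values of 1 gene, blue for small and orange for large subunit genes, with Rplp0 and Rpl34 in black. Most lines are lowest in KI replicate 1 and highest in KI replicate 2, with both KD libraries between; Rpl34 departs from this at 112 and 107 CPM in the KI libraries.

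The members moved together. Of the 83 that passed the low-count filter, 81 were higher in KI replicate 2 than in KI replicate 1, with a median ratio of 2.40, and all 83 were higher in KD replicate 2 than in KD replicate 1, with a median ratio of 1.56. Over all genes tested, the same median ratios were 1.01 and 1.11. In 67 of the 83 the order from low to high was KI replicate 1, KD replicate 1, KD replicate 2, KI replicate 2. In 12 more, KD replicate 2 stood above KI replicate 2 and the order was otherwise the same. For each 100 counts of the large subunit, the small subunit had 76.0, 76.7, 79.5 and 77.0 counts. The balance of the subunits in counts thus varied by far less than their summed level.

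Set side by side by replicate number, which is also by high or low Xist, the genotypes went opposite ways. KD replicate 1 stood above KI replicate 1 in 81 of 83 members (median ratio 1.37), and KD replicate 2 stood below KI replicate 2 in 68 of 83 (median ratio 0.888). Each of these sets 1 mouse against 1 mouse and has no replicate check. Over all genes tested, the medians were 1.00 and 0.953.

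**Figure D2:**
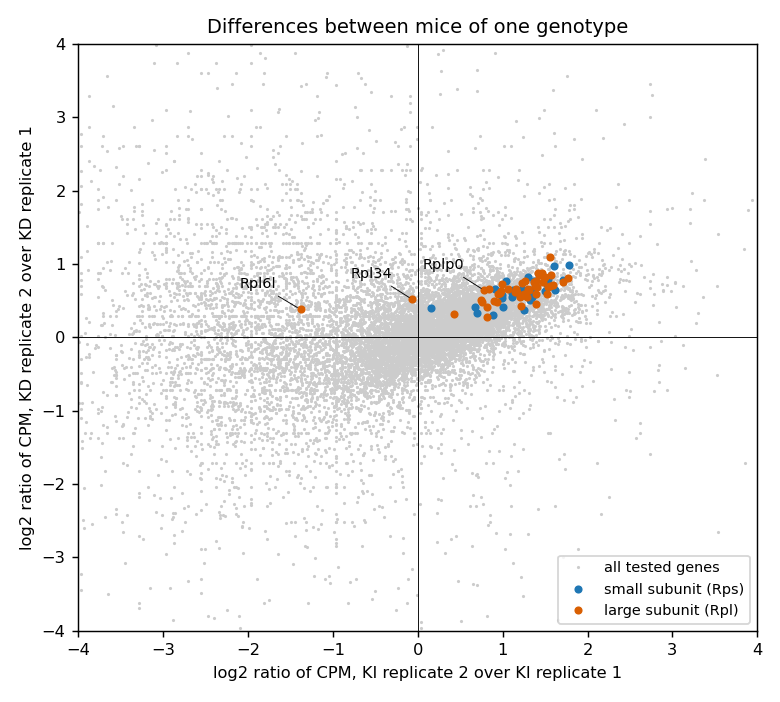
Log2 ratio of CPM between the KI mice (x axis, replicate 2 over replicate 1) and between the KD mice (y axis, replicate 2 over replicate 1), with 13731 tested genes that had counts in all 4 libraries in grey (223 lie outside the axes) and members in blue (small subunit) and orange (large subunit). The members sit above 0 on both axes, apart from Rpl34 and the pseudogene Rpl6l, which are below 0 on the x axis.

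No ribosomal protein gene passed the test of KD against KI. In edgeR's quasi-likelihood test with Benjamini-Hochberg adjustment over all 13822 genes, 0 of 83 members were called higher or lower (0% of all genes were called in either direction), and the lowest adjusted p of a member was 0.586. None had an unadjusted p under 0.05, whereas 1.29% of all genes had one and were higher in KD and 8.34% had one and were lower. DESeq2 and limma-voom also called 0 members, with 0 at an unadjusted p under 0.05, while DESeq2 called 0.0362% of all genes higher and 0.991% lower (2.02% and 9.43% at an unadjusted p under 0.05). The fold changes were small: 48 members were positive and 35 negative (44.5% of all genes were positive), the median log2 fold change was 0.03 (all genes -0.06), and 76 of 83 lay within 0.3 of zero. This split of signs was not stable: 69 members were positive with RLE scaling, 70 with DESeq2, 75 with limma-voom and 82 with library size only. With 1 library left out, 8 to 83 of the 83 or 84 members tested were positive, and the median ran from -0.32 to 0.90. Both KD libraries lay above both KI libraries for 2 members, Rpl34 and Rpl6l, and below them for 0, where the same held for 14.5% and 23.5% of all genes tested.

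Alternatives with a member past a limit also moved many other genes. Without TMM, by library size only, Rpl10 and Rpl34 had an unadjusted p under 0.05 in edgeR's test and were higher, as did 10.6% of all genes (3.13% were lower). With protein-coding genes only, Rpl34 alone did, beside 2.67% of all genes higher and 7.14% lower. Without KI replicate 2, 41 members were higher at that limit, against 7.2% of all genes higher and 29.8% lower. In that fit Rps29, at 74.9, 229, 138 and 216 CPM, was the 1 member called (1.7% of all genes were called higher and 23% lower). KI replicate 1, the lowest library for most members, is there the lone KI mouse.

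The spread between mice limits what these values can show. The standard error of the log2 fold change had a median of 0.51, and the 95% intervals had a median lower bound of -1.23 and a median upper bound of 1.34. The intervals of all 83 include zero. Those of 61 reach past a log2 change of 1 in both directions, those of 20 in 1 direction, and those of 2 (Rpl30 and Rps27) in neither. For the 61, neither a doubling nor a halving lies outside the interval. Counting error was the smaller part, since the 74 members above 100 CPM on average had at least 270 counts in every library.

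**Figure D3:**
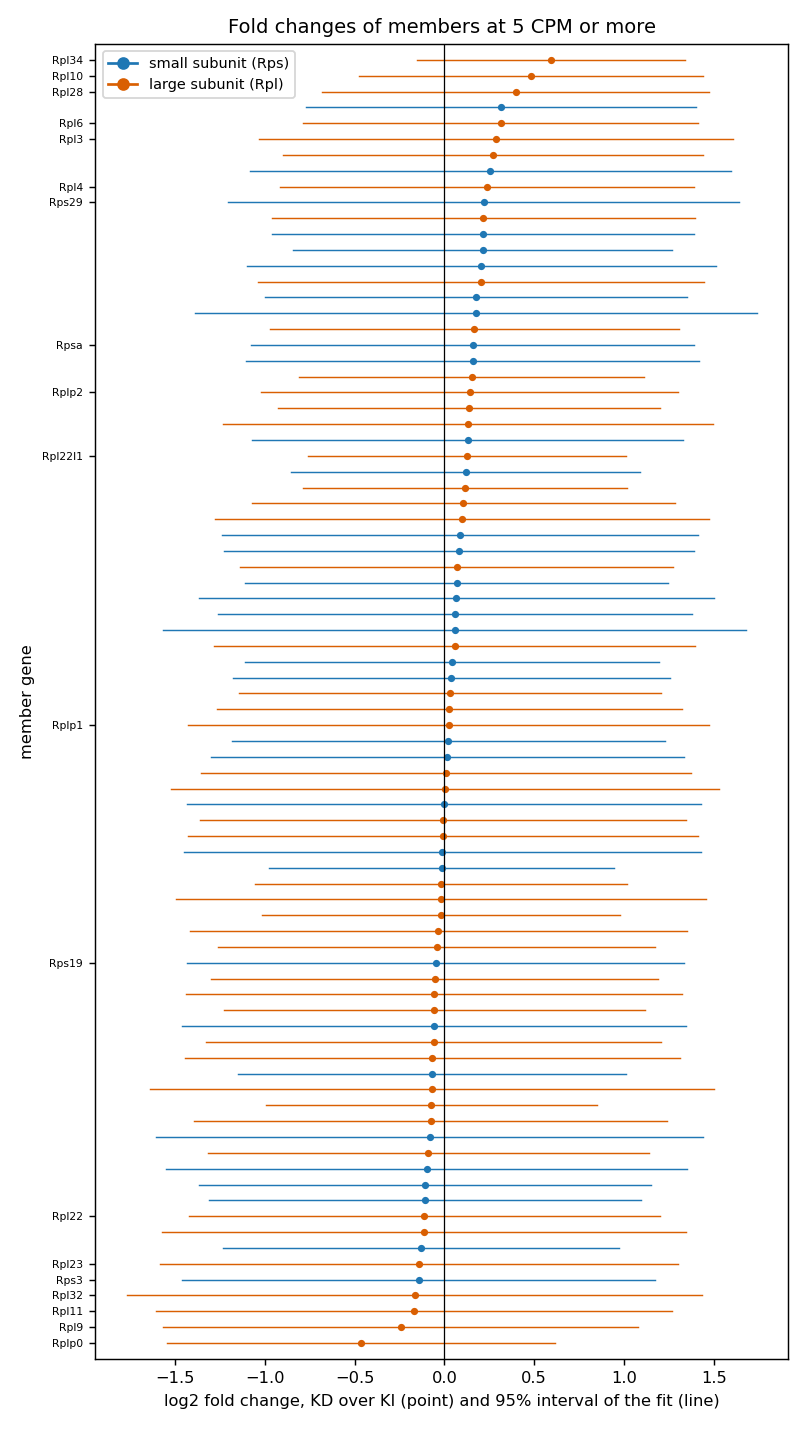
Log2 fold change of KD over KI (point) with its 95% interval from the edgeR fit (line) for the 82 tested members with a mean of at least 5 CPM, sorted by fold change, with some members named; blue is the small subunit and orange the large. All intervals cross zero, and the points run from -0.46 for Rplp0 to 0.59 for Rpl34.

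Among core proteins of the large subunit, Rpl4, whose long extension lines the exit tunnel, had the highest CPM of any member averaged over the 4 libraries. Rplp0 and Rps9 were higher in KI replicate 1, and Rps3 and Rpl13a in KI replicate 2. CPM are not corrected for length, so this orders counts, not RNA levels. Rpl4 stood at 527, 1015, 726 and 1093 CPM, and the genotypes overlapped. The log2 fold change was 0.24 ± 0.46 (SE). Rpl3, which lies next to the peptidyl transferase centre, stood at 271, 649, 414 and 708 CPM (0.29 ± 0.53). Rpl6, Rpl28 and Rpl10 also had positive values, of 0.31 ± 0.44, 0.40 ± 0.43 and 0.48 ± 0.38, with overlapping genotypes in each. Rpl10 (chrX:74270816-74273135, GRCm38) is the protein added last to the large subunit, and it is mutated in T cell leukaemia. It stood at 178, 301, 280 and 390 CPM, with adjusted p = 0.803 in edgeR, and at 0.0965 to 1 over the alternatives. On the negative side were Rpl9 (-0.24 ± 0.53), Rpl11 (-0.17 ± 0.58), Rpl32 (-0.17 ± 0.64) and Rpl23 (-0.14 ± 0.58). These 4 genes had the same order of libraries, with KI replicate 2 highest and KI replicate 1 lowest. Their negative sign rests on the scaling, and turned positive with library size only.

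In the small subunit, Rps3, a protein of the mRNA entry site that also acts in DNA repair, stood at 485, 1215, 634 and 905 CPM (log2 -0.14 ± 0.53, SE; 0.33 with library size only). Rpsa, once described as a laminin receptor, stood at 417, 909, 578 and 901 CPM (0.16 ± 0.50). Rps9, among the most counted members, stood at 536, 869, 678 and 850 CPM. All 3 were lowest in KI replicate 1. The small subunit had a median log2 fold change of 0.06 over 34 tested members and the large subunit 0.01 over 49.

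The 10 members linked to Diamond-Blackfan anaemia or to the 5q deletion (among them Rps19, Rpl5, Rpl11, Rpl35a and Rps14) gave no call between genotypes. Of these, 3 had positive and 7 negative values, from -0.17 to 0.21 with a median of -0.01, and the lowest unadjusted p among them was 0.709 in edgeR's test. All 10 were higher in KI replicate 2 than in KI replicate 1 and higher in KD replicate 2 than in KD replicate 1, and all 10 were lower in KD replicate 2 than in KI replicate 2. Rps19 (chr7:24884592-24889811), the gene most often mutated in that anaemia, stood at 164, 466, 239 and 370 CPM, a mean of 315 ± 213 (SD, n = 2) in KI and 305 ± 93.0 (SD, n = 2) in KD. The log2 fold change was -0.05 ± 0.55 (SE). Erythroid markers were far from flat in the same libraries. The 10 listed (among them Hbb-bs, Klf1 and Alas2) summed to 464 and 459 CPM in KI against 64.7 and 3.37 CPM in KD. All 10 were lower in both KD libraries, as were 23.5% of all genes tested. In edgeR's test 0 of these 10 passed after adjustment either. At an unadjusted p under 0.05, 9 of them were lower in KD, as were 8.34% of all genes. The summed ribosomal protein level did not follow the order of libraries seen in the erythroid markers.

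The stalk of the large subunit, which recruits elongation factors, is built from Rplp0, Rplp1 and Rplp2. Rplp1 stood at 235, 690, 358 and 583 CPM (log2 0.02 ± 0.58, SE) and Rplp2 at 214, 445, 282 and 445 CPM (0.14 ± 0.47). Rplp0 (chr5:115559467-115563729), the scaffold that binds the other two, stood at 548, 944, 423 and 659 CPM. It had the most negative fold change of all members, -0.46 ± 0.43 (SE; adjusted p = 0.858 in edgeR, 0.488 to 1 over the alternatives), and KI replicate 1 fell between the KD libraries. As a share of the members' summed counts Rplp0 was lower in both KD libraries (2.18% and 2.17%) than in both KI libraries (3.80% and 2.78%). A fit scaled to the members' sum, chosen after seeing the data, gave log2 -0.60 ± 0.56 (SE) and an adjusted p of 1.00 in edgeR. What limits that fit is given below with the composition of the set.

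Rpl34 (chr3:130726827-130730398), a large subunit protein, was the protein-coding member that departed from the common pattern between the KI mice. It stood at 112 and 107 CPM in KI replicates 1 and 2 and at 137 and 196 CPM in the KD mice, with no overlap of the genotypes. KI replicate 2, the library with the highest level for most members, was the lowest for this gene. The log2 fold change was 0.59 ± 0.30 (SE; 95% interval -0.15 to 1.34), the lowest p of the members at 0.0979, which ranks 2311 among 13822 genes, with adjusted p = 0.586 in edgeR (0.215 to 1 over the alternatives). Relative to the members' sum the genotypes overlapped: Rpl34 took 0.780% and 0.316% in KI and 0.705% and 0.643% in KD. The 2 pseudogenes named after Rpl34 held 0, 136, 14 and 15 counts, with KI replicate 2 highest. Reads shared between the gene and such copies are counted for neither, and the part of this in the Rpl34 values was not tested.

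Composition within the set was compared for every tested member as its share of the members' summed counts. Both KD libraries lay above both KI libraries for 16 of 83 and below them for 10. Divided by the same sum, 4.06% of all genes lay higher in KD and 18.6% lower. These percentages are not a like background. The division removes variation that the members share and adds it to other genes. In the fit scaled to that sum the median log2 fold change of all genes was -0.24. The counts of 16 and 10 are therefore not read as an excess. The members above included Rpl10, Rpl28, Rpl3 and Rpl6, with Rplp0, Rpl9, Rps24 and Rps3 among those below. The differences were small, with 78 of 83 within 0.3 on the log2 scale. In the fit scaled to the members' sum edgeR called 0 members, with 0 at an unadjusted p under 0.05 (0.0217% of all genes had one and were higher, 4.04% lower). That fit shares information on spread across all genes. Its standard error was 0.51 even for Rps10, whose shares were 0.816%, 0.808%, 0.809% and 0.811%. Differences of the size seen here could not be called, so the fit does not show whether composition was stable.

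Some members have a paralogue that can take the place of the usual protein. Rpl22l1, which stands in for Rpl22 and has antagonistic roles to it in blood development, had 16.2, 21.8, 18.5 and 23.1 CPM (log2 0.12 ± 0.36, SE) beside 114, 295, 144 and 234 CPM of Rpl22 (-0.11 ± 0.53). This came to 14.3, 7.40, 12.8 and 9.84 counts of Rpl22l1 for each 100 of Rpl22. The genotypes overlapped. Rpl22l1 varied less between libraries than Rpl22, the denominator of this ratio, and both were lowest in KI replicate 1. Rps27l, a p53 target, had 53.2, 86.4, 67.7 and 89.0 counts for each 100 of Rps27, and Rpl7l1 had 17.8, 16.3, 17.9 and 15.6 for each 100 of Rpl7. The ratios are of counts, not corrected for length, and compare libraries, not the genes' levels. The testis and muscle paralogues were near silent: Rpl39l had 2 counts over the 4 libraries, Rpl10l 3 and Rpl3l 36. These, with Rps4l (4 counts) and Rps12l1 (0), are the 5 members that did not pass the low-count filter. Of the others annotated as pseudogenes, Rps3a2 had 27 to 100 counts per library, and Rpl6l had 4, 3, 15 and 16 counts.

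The 4 X-linked members, Rps4x, Rpl10, Rpl36a and Rpl39, had 2 positive and 2 negative fold changes. Rps4x escapes X inactivation in humans but not in mice. It stood at 320, 691, 438 and 669 CPM, higher in both libraries with Xist, as were nearly all autosomal members.

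Alignment limits these genes more than most, because processed copies of them are scattered over the genome. Alignments that were not unique made up 80.7% to 86.4% of all entries in the files, and these were counted for no gene. The 250 genes named as ribosomal protein pseudogenes in the files summed to between 250 and 417 CPM, with 77 at 0 in all 4 libraries. Among the 34 tested, 20 fold changes were positive and 14 negative, and 0 passed edgeR's test (0 at an unadjusted p under 0.05). The members' levels given here are those of the reads that align to one place only, so a low value such as that of Rpl24 (24.1 to 57.2 CPM) is not a measure of its RNA against that of other members.

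Ribosomal proteins that carry other names behaved like the members. Rack1, a scaffold on the head of the small subunit, stood at 588, 1258, 794 and 1181 CPM. Fau, the precursor of Rps30, stood at 162, 296, 221 and 261 CPM. Both, which are also on the translation list below, were lowest in KI replicate 1 and next lowest in KD replicate 1.

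Other lists of abundant genes had the same low library. The 27 translation factors and other TOP mRNAs summed to 7574 and 13278 CPM in KI and 10538 and 14916 CPM in KD, with 24 positive and 3 negative fold changes and a median of 0.16. Eef1a1, which brings aminoacyl-tRNA to the ribosome, stood at 2099, 3679, 2965 and 4528 CPM. Pabpc1, the poly(A)-binding protein, differed in pattern at 282 and 267 CPM in KI against 428 and 442 CPM in KD (log2 0.67, unadjusted p = 0.0623 in edgeR's test). The 77 mitochondrial ribosomal proteins, encoded by separate nuclear genes, summed to 1085, 2069, 1330 and 1779 CPM, with 32 of 76 tested positive and a median of -0.04. The 14 genes of the proteasome core, another complex of fixed make-up, summed to 634, 1322, 886 and 1224 CPM, with 10 positive and a median of 0.19. In edgeR's test 0 genes of these 3 lists passed, with 0 at an unadjusted p under 0.05. KI replicate 2 exceeded KI replicate 1 by a median ratio of 1.83 for the translation list, 1.97 for the mitochondrial ribosomal proteins and 2.21 for the proteasome core, beside 2.40 for the cytosolic ribosomal proteins.

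**Figure D4:**
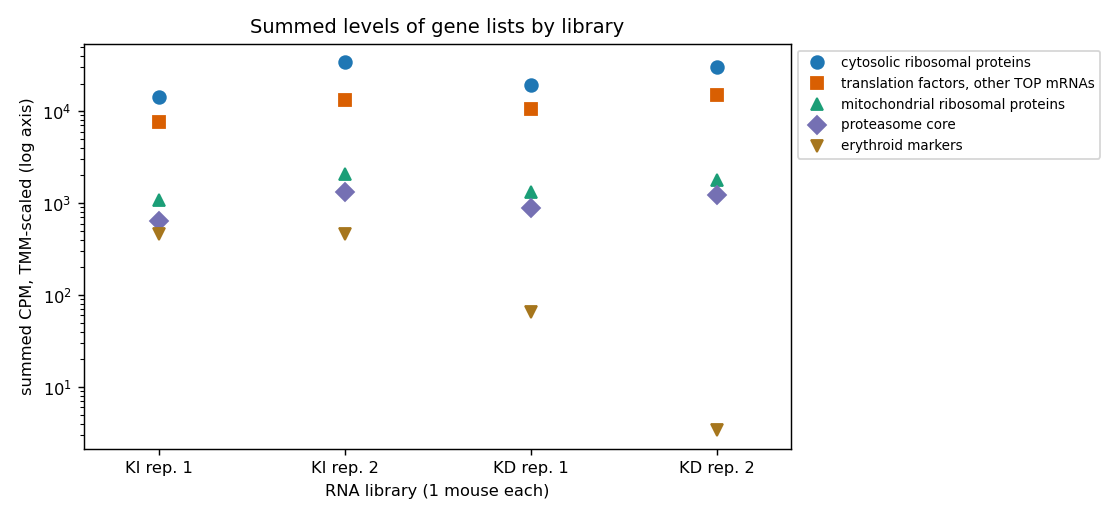
Summed TMM-scaled CPM (log axis) of 5 gene lists in the 4 RNA libraries, 1 mouse each; each symbol is the sum over a list in 1 library. The ribosomal protein, translation, mitochondrial ribosomal protein and proteasome lists are lowest in KI replicate 1, while the erythroid markers are at 464 and 459 CPM in KI and 64.7 and 3.37 CPM in KD.

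Markers of other cells moved differently from the ribosomal proteins. The 8 late neutrophil markers summed to 15082 and 15969 CPM in KI and 2849 and 1033 CPM in KD, and all 8 were lower in both KD libraries. The 7 monocyte markers summed to 2274 and 1340 CPM in KI and 3206 and 3406 CPM in KD, with 6 higher in both KD libraries. Over all genes tested, 23.5% were lower and 14.5% higher in both KD libraries. In edgeR's test 0 genes of the neutrophil and monocyte lists passed after adjustment. T cell markers summed to 71.0 and 67.7 CPM in KI and to 10.8 and 15.6 CPM in KD, with all 8 fold changes negative. Of these 8, 5 were lower in both KD libraries, and Cd3e alone held 37.3 CPM in KI replicate 2. The 6 B cell markers summed to 32.5 and 31.2 CPM in KI and 15.7 and 19.9 CPM in KD. All 3 that were tested had negative fold changes, but the genotypes overlapped in each. Cd79b alone held 28.1 CPM in KI replicate 2. The 5 stromal and endothelial markers summed to 49.2 and 42.9 CPM in KI and 56.5 and 83.3 CPM in KD. Pecam1 made up most of that sum, and the other 3 tested were lower in both KD libraries. Among leukaemic myeloid markers 8 of 11 fold changes were positive. KI replicate 2 was above KI replicate 1 for 6 of the 11, and KD replicate 2 above KD replicate 1 for 5. The granule genes Mpo, Elane, Ctsg and Prtn3 were, like most ribosomal protein genes, lowest in KI replicate 1 and higher in replicate 2 of both genotypes. Mpo stood at 897, 2040, 1397 and 2177 CPM. Ptprc went the other way, at 968.5, 329, 1092 and 414 CPM. The part of these cell mixtures in the ribosomal protein values was not tested.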

How the data were processed

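The authors deposited raw counts per gene for 4 RNA libraries (TruSeq Stranded mRNA, per the labels); per the submitters' processing notes, the tools were TopHat2 2.0.10, HTSeq, SAMtools and DESeq, and the build GRCm38. For the strand setting and annotation release the sources used here give nothing, so counts may include reads of the other strand. Entries that name no gene, 93.2% to 97.9% of each file's total, were left out. The 8 chromatin libraries, whose 1616 columns name neither antibody nor mouse, are not used here.

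Symbols came from a table of gene IDs (40254 of 41214 matched), and biotypes and coordinates from RefSeq GRCm38.p6 by symbol (32159 matched). In R 4.3.3, genes kept by edgeR 4.0.16 filterByExpr (13822) received TMM factors of 0.957, 0.778, 1.19 and 1.13. The quasi-likelihood functions glmQLFit and glmQLFTest were used, genotype as the only term, with Benjamini-Hochberg adjustment at 0.05. Intervals use the fit's standard error and total degrees of freedom. 3 counts correspond to 0.212 to 0.696 CPM. DESeq2 1.42.0 and limma-voom (limma 3.58.1) were alternatives. All p-values rest on the spread among 4 mice, or fewer where a library was left out. Those of edgeR, DESeq2 and limma-voom also draw on the spread of other genes.

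Members, lists and the naming rule were chosen with earlier results of these data known. The rule took the members with the highest counts, the 6 highest and 6 lowest fold changes at 5 CPM or more, the 4 lowest p, 7 paralogue pairs, 10 disease genes and the stalk; not all are printed. Rps29 was named after its values were seen, as was Rpl24. No transcript lengths were used, so levels are not compared between genes. Some genes are not reported here.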

Additional observations from a re-analysis of the deposited data

How the results depend on the processing

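The absence of calls among the members held under every alternative but 1: without KI replicate 2, Rps29 was called higher (log2 1.32, edgeR adjusted p = 0.0311, against 0.22 with all 4 libraries). That fit leaves KI replicate 1, the library with most reads outside genes, as the lone KI mouse, assumed to vary like the KD mice, and it called 1.7% of all genes higher and 23% lower. Leaving out each library gave 0 to 1 members called higher and 0 lower, 0 to 41 members higher at an unadjusted p under 0.05, a median log2 fold change of -0.32 to 0.90, and 8 to 83 members positive (8 when KI replicate 1 was left out, 83 for KI replicate 2, then 82 and 10 for the KD replicates). The ratio of the members' share ran from 1.09 to 2.11. Positive members, 48 of 83 as reported, numbered 82 with library size only, 75 with limma-voom and 73 with the replicate block. RLE gave 69, upper quartile 39 and DESeq2 70, also of 83. They were 76 of 87 without a low-count filter and 74 of 81 with protein-coding genes only. By library size only, Rpl10 and Rpl34 had an unadjusted p under 0.05 in edgeR's test, with 10.6% of all genes higher at that limit. The median of all genes there moved to 0.37. With protein-coding genes only, Rpl34 alone did, with 2.67% of all genes. The fits with a library left out tested 84 members, or 83 without KI replicate 2. Replicate numbers are not stated to pair mice. Differences between the mice of a genotype correlated at 0.269 across genes between KI and KD, and the block changed no call among the members and took calls over all genes from 0 to 7. Those calls were 5 higher and 137 lower with DESeq2, 29 and 140 without a low-count filter, and, with 1 library left out, 2 to 284 higher and 9 to 3846 lower.

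Signs turned for many of the named genes. Values with library size only were 0.24 for Rpl9, 0.31 for Rpl11, 0.33 for Rpl32, 0.33 for Rps3, 0.34 for Rpl23, 0.43 for Rps19 and 0.37 for Rpl22. With limma-voom they were 0.088 for Rpl32, 0.025 for Rps3, 0.013 for Rpl23, 0.14 for Rps19 and 0.03 for Rpl22, and with the replicate block 0.033 for Rpl32, 0.10 for Rps19 and 0.0046 for Rpl22. Without a filter Rps19 had 0.058 and Rpl22 0.0032, with protein-coding genes only 0.083 and 0.019, and Rps19 had 0.035 with RLE and 0.035 with DESeq2. Rplp1 had -0.013 with upper quartile and -0.019 at 5 CPM in 2 libraries, and Rpl22l1 -0.035 with the members' sum. Without each library in turn the values ran from -0.78 to 0.062 for Rplp0, -0.65 to 0.70 for Rpl9, -0.62 to 0.84 for Rpl11, -0.68 to 1.05 for Rpl32, -0.53 to 0.75 for Rps3, -0.62 to 0.85 for Rpl23, -0.12 to 1.13 for Rpl3, -0.0501 to 0.87 for Rpl4, -0.49 to 0.97 for Rps19, -0.52 to 0.82 for Rpl22, -0.43 to 1.08 for Rplp1, -0.19 to 0.85 for Rplp2, -0.17 to 0.91 for Rpsa and -0.25 to 1.32 for Rps29, while Rpl34 stayed between 0.38 and 0.93 and Rpl10 between 0.27 and 1.00. The cause of these turns was not tested. With 2 mice per genotype the precision is set mainly by the spread between libraries, of which counting error is the smaller part. Mouse and depth differ together between libraries, and their parts in that spread were not tested.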
